A study of Mus musculus with 5 samples.

Results

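Double-negative-like early thymocytes (DN-like barcodes below) were described in single-cell RNA sequencing of mouse lung tumors. DN-like barcodes were chosen by their own counts. Such a barcode showed over 150 genes and no more than 8% mitochondrial UMIs, and it had at least 1 unique molecular identifier (UMI, 1 counted RNA molecule) of Il2ra, at least 1 UMI of Ptcra, Dntt, Trgc1 or Hes1, no UMI of Cd4, Chga or Chgb, and at most 1 UMI of Cd8a and Cd8b1 together. In all, 312 barcodes met this rule, 98 in the anti-PD-1 library and 214 in the library labeled combination in response. They were set against 14393 other T-lineage barcodes of the same libraries, which held at least 1 UMI of Cd3e, Cd3d or Cd3g, and they lie among 85291 barcodes of the series that passed the filters on genes and mitochondrial share. Since the same counts chose the barcodes, all levels below are descriptions and none was tested.

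Double-negative thymocytes are the earliest T-lineage cells of the thymus, before the coreceptors Cd4 and Cd8 appear. During these stages Notch signals commit cells to the T lineage, Il2ra (the IL-2 receptor alpha chain, CD25) is displayed, and the beta, gamma and delta genes of the T cell receptor (TCR) are rearranged with the help of the Rag enzymes and Dntt, which adds nucleotides at the joints. A successful beta chain pairs with the invariant pre-TCR alpha chain (Ptcra), after which cells proliferate, lose Il2ra, gain Cd4 and Cd8 and rearrange the alpha genes as double positive thymocytes.

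Mice carried floxed alleles of Rb1 and Trp53 (Rb1 fl/fl, Trp53 fl/fl), which adenoviral Cre given into the trachea deleted in the lung. Lesions reached a size measurable by CT after about 6 months. This is an autochthonous model of small cell lung cancer (SCLC), a neuroendocrine tumor. Cre acts in the cells of the lung that the virus reaches. For the anti-PD-1 library the treatment was an antibody against the checkpoint receptor PD-1 at 10 mg/kg, and for the other library the same antibody with the ERBB2 inhibitor mubritinib (ERBB2i) at 10 mg/kg by mouth, labeled as in response. Agents were given every 3 days. The mice had a C57BL/6 background and were of both sexes, and for their age the methods give a lower limit at inclusion only. Each group holds 1 library, so no difference between libraries or barcodes has a replicate check, and all intervals are 95% intervals for counting error only.

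The libraries of the series held 9718 to 27210 barcodes and 21624506 to 88497833 UMIs. Anti-PD-1 had 13376 barcodes with 37594901 UMIs, and combination in response had 10137 barcodes with 21624506 UMIs. The tissue is labeled SCLC lung tumor and the cell type epithelial, but other T-lineage barcodes made up 46.3% of the barcodes that passed in anti-PD-1 and 83.3% in combination in response. Tumor-like barcodes (at least 3 UMIs of the neuroendocrine genes Chga and Chgb, none of Cd3) numbered 2516 in anti-PD-1, whereas none was found among the 10070 barcodes of combination in response. Barcode sequences of 27 bases were shared by 79 barcodes of these libraries, among them 0 DN-like barcodes of anti-PD-1 and 2 of combination in response.

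As a sequence of the genes that define these barcodes, the region before the start of Ptcra is shown, because Ptcra gives the pre-TCR its alpha chain and Notch is known to act on it. Ptcra lies on the minus strand at chr17:46755663-46763712 (GRCm38.p6, the build that the mm10 label names), and the 250 bases before its start at chr17:46763713-46763962 are given 5′ to 3′ on the strand of the gene, from the RefSeq table of that build. Capitals mark matches of TGGGAA, the core sequence bound by Rbpj, the DNA-binding partner of Notch, searched on both strands.
Ptcra: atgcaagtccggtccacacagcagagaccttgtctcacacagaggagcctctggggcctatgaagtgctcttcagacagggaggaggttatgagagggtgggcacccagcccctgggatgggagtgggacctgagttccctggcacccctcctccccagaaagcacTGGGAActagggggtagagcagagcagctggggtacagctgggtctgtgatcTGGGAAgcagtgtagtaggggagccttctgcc
The 2 matches begin 84 and 32 bases before the start of the gene. Of 32851 such windows of 27025 genes, 21.6% held at least 1 match and 2.77% held 2 or more, so that a match by itself is common. The windows of Il2ra, Notch1, Notch3 and Dtx1 held 0 matches. Binding was not measured in these data.

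In the anti-PD-1 library, the 98 DN-like barcodes were 1.60% (Clopper-Pearson interval 1.30 to 1.95) of the sum of DN-like and other T-lineage barcodes. The 214 barcodes of combination in response were 2.49% (2.17 to 2.84). Of all barcodes that passed the filters, they were 0.756% and 2.13%, respectively. A Cd3 gene was detected in 86 of 98 and in 199 of 214. The same rule was met by 1 of 115 T-lineage barcodes in vehicle, 10 of 3713 in ERBB2i and 2 of 1684 in combination. The 10 barcodes of ERBB2i differed in content: 3 of them held 138 UMIs of Il17a, the cytokine of type 17 T cells, 7 held Trdc, and none held Ptcra, Hes1 or Dntt. Il17a was at 0 in the DN-like barcodes of both libraries described here, which allows up to 3.06% of barcodes with a UMI in anti-PD-1 and 1.40% in combination in response.

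DN-like barcodes were deeper than the barcodes they were compared with. Their median was 4700.5 UMIs (589 to 16892) and 1990.5 genes in anti-PD-1, against 1903 UMIs and 1060.5 genes in other T-lineage barcodes. The DN-like barcodes of combination in response had a median of 3775 UMIs (530 to 24263) and 1875.5 genes, against 1301 UMIs and 812 genes. A rule that asks for UMIs of low genes takes deep barcodes more readily, so shares below are given after each barcode was thinned to 500 UMIs. The mitochondrial share was a little higher, with medians of 2.35% and 2.47% in DN-like barcodes against 1.99% and 2.05%.

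The genes used by the rule were met unevenly. Levels are given as UMIs per 1000000 UMIs of the same barcodes (CPM), and ratios as log2 of DN-like over other T-lineage barcodes. Il2ra reached 452 CPM (240 UMIs) in anti-PD-1 and 1073 CPM (1319 UMIs) in combination in response, with a median of 2 and 5 UMIs and a maximum of 16 and 24 UMIs per barcode. Trgc1, a constant region of the TCR gamma chain, was detected in 78 of 98 and 177 of 214 barcodes at 1477 and 1596 CPM, against 30.8 and 99.3 CPM in other T-lineage barcodes. Hes1, a transcriptional repressor induced by Notch, was detected in 46 of 98 barcodes at 284 CPM and in 171 of 214 barcodes at 1111 CPM, against 44.4 and 63.3 CPM. It was therefore the rule gene that differed most in detection between the libraries. Ptcra was found in 31 of 98 barcodes at 103 CPM against 78.8 CPM in anti-PD-1, a log2 ratio of 0.39 (-0.02 to 0.78). It was found in 110 of 214 barcodes of combination in response at 269 CPM against 86.7 CPM, a log2 ratio of 1.63 (1.46 to 1.80).

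Dntt did not set these barcodes apart, although it admitted some of them. It was present in 90 of 98 and 203 of 214 barcodes, and its log2 ratio was 0.42 in anti-PD-1 and 0.05 in combination in response, because the other T-lineage barcodes held 880 and 1266 CPM. Dntt was the only gene of the 4 in 6 and 17 barcodes. All 4 genes were found together in 11 of 98 barcodes of anti-PD-1 and in 90 of 214 of combination in response, and exactly 1 of them in 13 and 24. Against double positive-like barcodes alone (1435 and 3666, with at least 1 Cd4 UMI and at least 2 UMIs of Cd8a and Cd8b1), the log2 ratio of Ptcra was -0.13 in anti-PD-1 and 1.30 in combination in response, while that of Hes1 was 4.19 and 4.75.

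**Figure D1:**
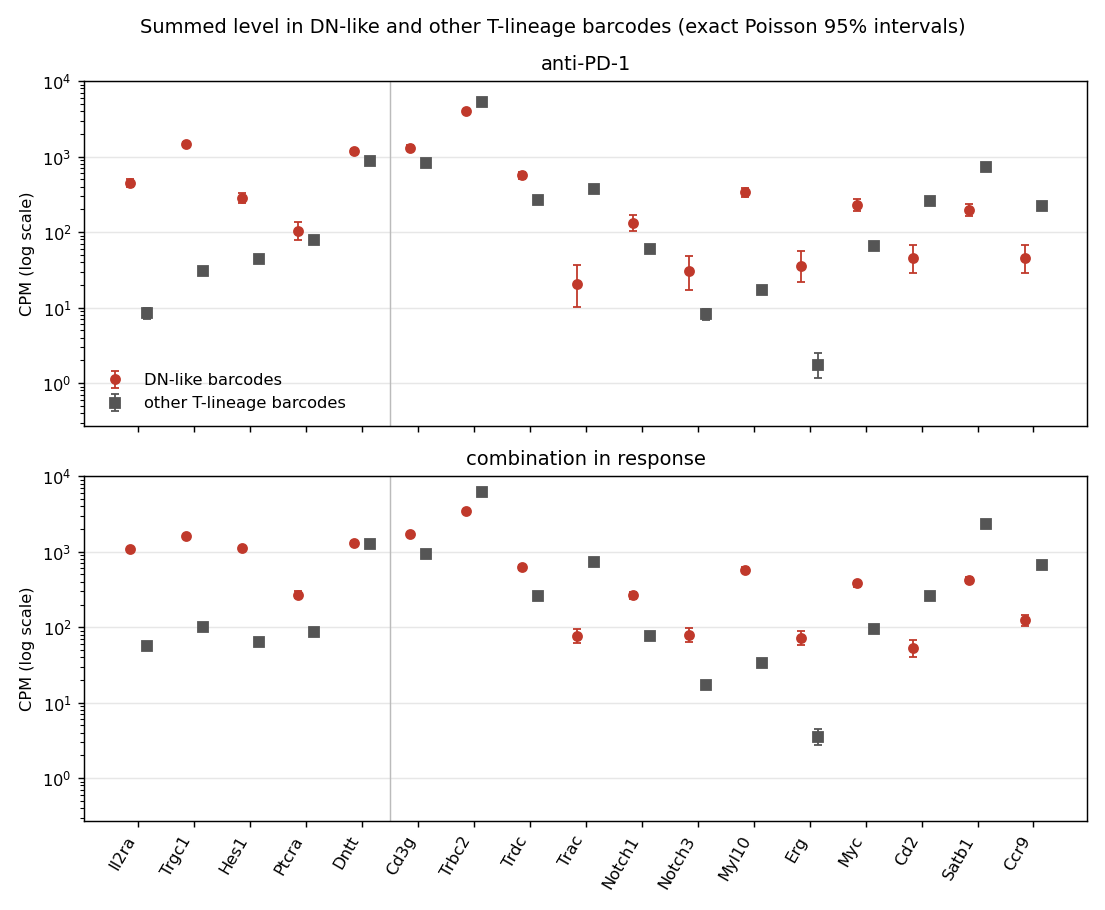
Level of selected genes in CPM on a log axis, in DN-like barcodes (red circles) and other T-lineage barcodes (gray squares) of each library, with exact Poisson 95% intervals. Genes left of the gray line were used by the rule; to its right, Notch1, Notch3, Myl10, Erg and Myc lie higher in DN-like barcodes of both libraries and Trac, Cd2, Satb1 and Ccr9 lower.

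Among 4971 genes with enough UMIs in anti-PD-1 (at least 20 in DN-like barcodes, or 20 expected there at the level of the other barcodes), 206 were at least 2-fold higher (4.14%) and 527 at least 2-fold lower (10.6%). Among 8089 genes in combination in response, 525 were higher (6.49%) and 848 lower (10.5%). Of 4821 genes measured in both libraries, 123 were 2-fold higher in both (2.55%) and 162 lower in both (3.36%). The median log2 ratio of all measured genes was -0.03 in anti-PD-1 and -0.05 in combination in response. A gene with a high level in DN-like barcodes passes the minimum more easily, so these counts describe the genes measured and not all genes. The shares of each library are the background for the counts of gene lists below.

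The TCR genes separated DN-like barcodes from the rest by chain. Trgc1 and Trgc2 are nearly identical, and the authors' counting could split reads between them in an uncertain way. Summed over Trgc1, Trgc2 and Trgc4, the gamma constant regions reached 3238 CPM against 107 CPM in anti-PD-1, a log2 ratio of 4.93. They reached 3993 CPM against 290.2 CPM in combination in response, a log2 ratio of 3.78, and they were detected in 89.8% and 90.7% of DN-like barcodes. Trgc1 is part of both the rule and this sum. Trgv2, a gamma variable segment that the rule did not use, had log2 ratios of 3.68 (3.16 to 4.17) and 3.55 (3.35 to 3.75). The delta constant region Trdc (chr14:54142851-54146108, GRCm38.p6) was at 562 CPM against 268 CPM (299 UMIs in 62 barcodes) and at 620.0 CPM against 262 CPM (762 UMIs in 146 barcodes), log2 ratios of 1.07 and 1.24. When other T-lineage barcodes with a Chga or Chgb UMI were left out, the ratio of Trdc in anti-PD-1 was 0.73.

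The alpha constant region Trac, which lies beyond Trdc on the same chromosome (chr14:54220521-54224198), went the other way. It held 11 UMIs in 9 of 98 barcodes, 20.7 CPM against 377 CPM in anti-PD-1, and 94 UMIs in 40 of 214 barcodes, 76.5 CPM against 724 CPM in combination in response. The log2 ratios were -4.19 (-5.19 to -3.35) and -3.24 (-3.55 to -2.95). The beta constant regions Trbc1 and Trbc2, also near-identical, were abundant and moderately lower, at 6575 CPM against 8637 CPM and 5472 CPM against 9873 CPM, and were found in 95.9% and 97.7% of barcodes. Beta, gamma and delta transcripts were thus abundant in these barcodes while alpha transcripts were scarce.

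After each barcode was thinned to 500 UMIs, a depth that every barcode reached, the shares with a UMI kept this order. Trac was detected in 0 of 98 DN-like barcodes of anti-PD-1, which allows up to 3.06%, against 23.6% of other T-lineage barcodes. The corresponding shares in combination in response were 4.67% and 32.0%. Trdc was detected in 27.6% (19.0 to 37.5) against 7.99% and in 21.5% (16.2 to 27.6) against 5.06%. B-like barcodes (both Cd79a and Cd79b, no Cd3 gene) should lack Trdc and held it in 0 of 432 and 0 of 33 barcodes, which allows up to 0.694% and 9.09%. Their median depth before thinning was 1255 and 2660 UMIs. Without thinning, Trdc was found in 63.3% and 68.2% of DN-like barcodes.

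**Figure D2:**
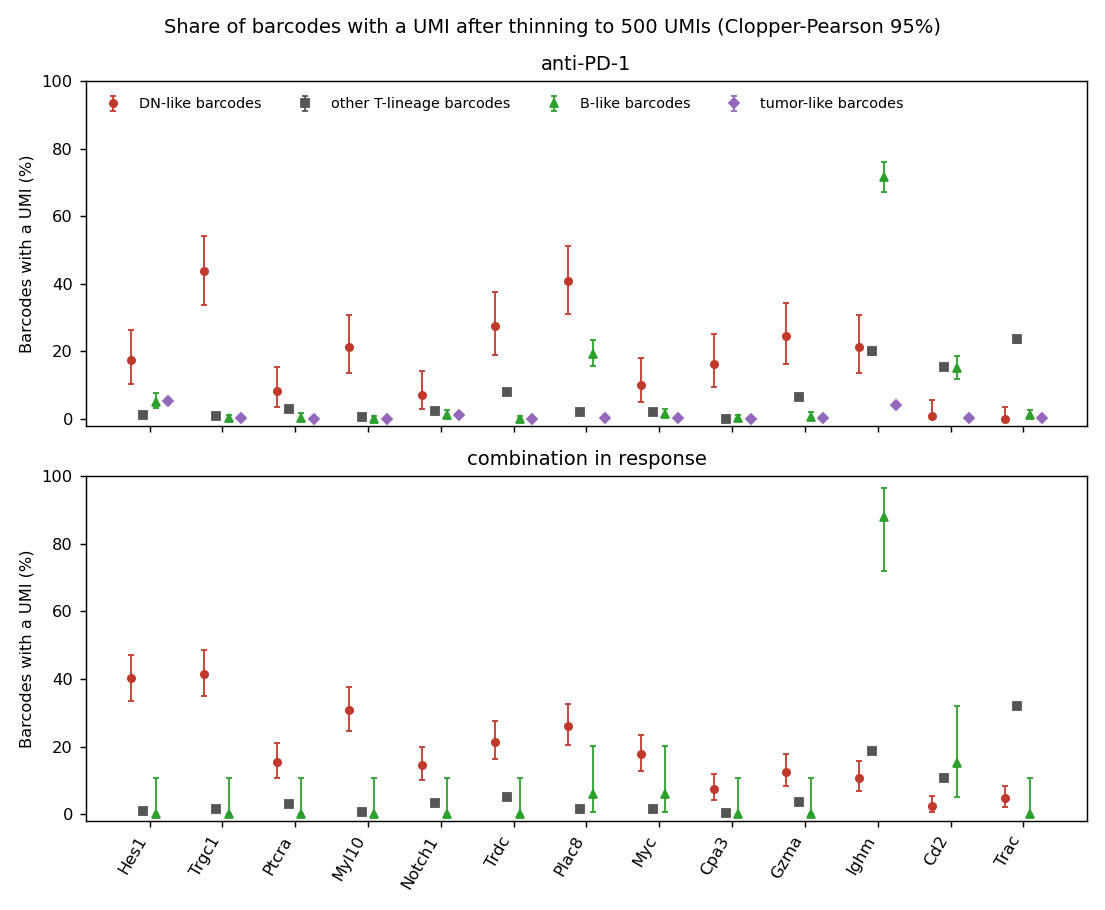
Share of barcodes with at least 1 UMI of a gene after thinning each to 500 UMIs, in percent with Clopper-Pearson 95% intervals, for DN-like, other T-lineage, B-like and, in anti-PD-1 only, tumor-like barcodes. DN-like barcodes lie above the other kinds for Hes1, Trgc1, Myl10, Trdc and Cpa3 in both libraries, and below other T-lineage barcodes for Trac and Cd2.

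Of the Notch pathway, Notch1, Notch3 and Myc had higher levels, whereas the rest of the list was mixed. Notch1, the receptor that drives T-lineage commitment, was at 132 CPM against 59.2 CPM in anti-PD-1 (70 UMIs in 41 barcodes), a log2 ratio of 1.15 (0.78 to 1.50). It was at 266 CPM against 76.7 CPM in combination in response (327 UMIs in 142 barcodes), a log2 ratio of 1.80 (1.62 to 1.97). When other T-lineage barcodes with a Chga or Chgb UMI were left out, the ratio of Notch1 in anti-PD-1 was 0.94. Notch3 held 16 UMIs in anti-PD-1, below the minimum, with a log2 ratio of 1.87 (1.03 to 2.63), and 97 UMIs in combination in response, with a ratio of 2.18 (1.84 to 2.51). Myc, a growth regulator and Notch target, had log2 ratios of 1.82 (1.54 to 2.09) and 1.99 (1.84 to 2.13).

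In the list of 20 Notch pathway genes, 7 passed the minimum in anti-PD-1, of which 2 were 2-fold higher and 0 lower, with a median of -0.13. In combination in response 14 passed, 4 higher and 1 lower, with a median of 0.40. The 4 were Notch1, Notch3, Myc and Dtx1, a Notch regulator at 65.1 CPM against 21.9 CPM. Dtx1 had only 6 UMIs in anti-PD-1, with a log2 ratio of -0.45 (-1.91 to 0.69). Hes6 and Cdca7 differed little, with log2 ratios of -0.43 and 0.45 in anti-PD-1 and 0.10 and 0.16 in combination in response. The transcript of Maml1, a coactivator of Notch, was the lower one, at -1.75 from 9 UMIs.

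Thinned to 500 UMIs, Notch1 was detected in 7.14% (2.92 to 14.2) of DN-like barcodes against 2.46% of other T-lineage barcodes in anti-PD-1, and in 14.5% (10.1 to 19.9) against 3.21% in combination in response. B-like barcodes of anti-PD-1 held Notch1 in 1.16% and tumor-like ones in 1.07%. Without thinning the shares in DN-like barcodes were 41.8% and 66.4%. Hes1 was detected in 17.3% (10.4 to 26.3) against 1.30%, and in 40.2% (33.6 to 47.1) against 1.09%. It was also found in 5.09% of B-like and 5.41% of tumor-like barcodes of anti-PD-1, whose median depth was 1255 and 3606 UMIs, and in 0 of 33 B-like barcodes of combination in response.

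Among factors of T-lineage commitment, most genes differed little in anti-PD-1, and several were lower in combination in response. Of 21 genes, 18 passed in anti-PD-1, with 1 higher, 3 lower and a median of 0.02, and 19 passed in combination in response, with 0 higher, 7 lower and a median of -0.70. Satb1, a chromatin organizer of thymocytes, was at 198 CPM against 732 CPM and at 418 CPM against 2328 CPM, log2 ratios of -1.89 and -2.48. Ets2 was lower as well, with log2 ratios of -2.30 and -2.16. Bcl11b, which seals T-lineage identity, was close to the other barcodes at 337 CPM against 352 CPM and 718 CPM against 914 CPM. The ratios of Runx1 were 1.01 and 0.61, those of Gata3 0.46 and 0.06, and those of Tcf7 -0.26 and -0.99. Runx1 in anti-PD-1 was 0.66 when comparison barcodes with a Chga or Chgb UMI were left out.

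Genes of still earlier progenitors were sparse. Of 20 such genes, 4 passed in anti-PD-1, with 0 higher, 1 lower and a median of 0.14. In combination in response 8 passed, of which 4 were 2-fold higher and 1 lower, with a median of 1.72. A sparse gene passes most easily through a high level in DN-like barcodes, so this median leans upward. The whole list summed to 625 CPM against 607 CPM in anti-PD-1 and to 949 CPM against 732 CPM in combination in response. Erg, an ETS factor of early T cell precursors, held 19 UMIs in 12 barcodes and 89 UMIs in 44 barcodes, 35.7 CPM against 1.74 CPM and 72.4 CPM against 3.54 CPM, with a log2 ratio of 4.36 in each. Mycn and Bcl11a had log2 ratios of 2.81 and 2.75 in combination in response from 25 and 23 UMIs. Kit, a receptor of early progenitors, held 28 UMIs in 17 of 214 barcodes and 4 UMIs in 3 of 98. Cd44, a marker of the earliest stages, held 8 and 6 UMIs. Few barcodes thus held Kit or Cd44 at this depth. Cd24a, a surface protein of immature thymocytes, was at 324 CPM against 231 CPM and at 527 CPM against 274 CPM.

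Genes of the recombination machinery were not higher than in the other barcodes. Rag2 was detected in 14 of 98 barcodes at 37.6 CPM against 119 CPM, and in 69 of 214 barcodes at 85.4 CPM against 243 CPM, log2 ratios of -1.67 and -1.51. Without double positive-like barcodes in the comparison, the ratio in combination in response was -0.85. With DN-like barcodes that held an Ighm, Cd79a or Cd79b UMI left out, and all comparison barcodes kept, the ratios were -0.95 and -0.71. Rag1 was listed at 0 in every barcode of the 5 libraries, so nothing can be said of it. Of 12 recombination genes, 6 passed in anti-PD-1, with 0 higher, 2 lower and a median of -0.11. The other library had 9, with 0 higher, 4 lower and a median of -0.95.

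Many components of TCR signaling were lower and none was 2-fold higher. Of 20 such genes, 19 passed in anti-PD-1 with 0 higher, 8 lower and a median of -0.61, and 20 passed in combination in response with 0 higher, 13 lower and a median of -1.24. Cd2, an adhesion receptor, was at 45.2 CPM against 262 CPM and at 52.9 CPM against 262 CPM. Cd5, an inhibitory receptor that follows TCR signal strength, had log2 ratios of -1.91 (-2.79 to -1.16) and -2.45 (-2.88 to -2.06). Cd6 and Sla, which dampen TCR signals, were lower in both libraries too. In contrast, the kinase Lck and the adaptor Lat were close to the other barcodes in anti-PD-1, with ratios of -0.11 each, and at -0.54 and -0.23 in combination in response. Of the CD3 chains, Cd3g was higher, with ratios of 0.66 and 0.89, while Cd3e was at -0.09 and -0.22 and Cd3d at -0.55 and -0.17. Cd3 genes define the comparison barcodes, which all hold at least 1.

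About as many genes of the double positive stage were 2-fold lower as were not. Of 16 genes, 12 passed in anti-PD-1, with 6 lower and a median of -0.84, and 16 passed in combination in response, with 9 lower and a median of -1.45, and none was 2-fold higher in either. Rmnd5a had ratios of -1.79 and -3.15, and Bcl2l1, the survival factor of that stage, -2.37 and -2.05. Arpp21 was close to the other barcodes at -0.04 and -0.50. Ccr9, the receptor for the thymic chemokine Ccl25, was at 45.2 CPM against 222 CPM and at 123 CPM against 666 CPM.

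Homing and egress genes went both ways. Itga4, an integrin chain, had log2 ratios of 1.73 and 0.98. Klf2, the factor that switches on egress genes, was lower at -2.15 and -1.62, and Ltb at -1.42 and -1.34. S1pr1, the receptor for egress, held 1 and 10 UMIs. Of 14 genes, 6 and 13 passed, 2 and 1 were higher, 3 and 8 were lower, and the medians were -0.65 and -1.37. The IL-7 receptor Il7r, which supports early thymocytes, was at 84.7 CPM against 34.6 CPM and at 158 CPM against 75.2 CPM. Its log2 ratios of 1.29 and 1.07 were 0.96 and 0.38 without double positive-like barcodes in the comparison. Of 17 cytokine receptor and signaling genes, 5 and 12 passed, 1 and 3 were higher, 1 and 5 lower, and the medians were -0.60 and -0.30. The common gamma chain Il2rg was listed at 0 in all 5 libraries.

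**Figure D3:**
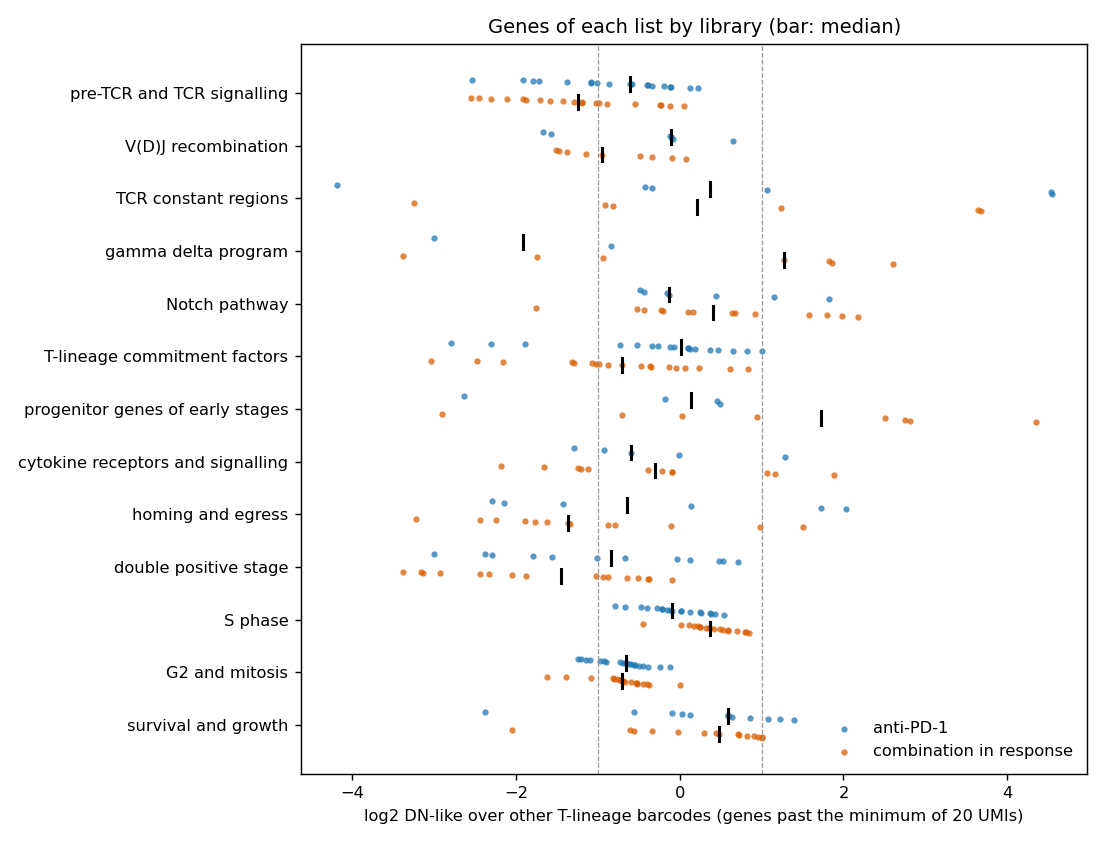
Log2 ratio of DN-like over other T-lineage barcodes for each measured gene of 13 lists, in anti-PD-1 (blue) and combination in response (orange), with a black bar at the median of each list and dashed lines at 2-fold. Lists of TCR signaling and of the double positive stage lie mostly below 0, with medians of -0.61 and -1.24 and of -0.84 and -1.45.

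Genes tied to gamma delta T cells were mixed. Of the 12 measured, 2 passed in anti-PD-1, with 0 higher, 1 lower and a median of -1.92, and 7 passed in combination in response, with 4 higher, 2 lower and a median of 1.27. The list summed to 273 CPM against 439 CPM and to 377 CPM against 713 CPM, which is lower in both libraries. Blk, Etv5, Cd163l1 and Il17rb were the 4 higher genes. Id3, a target of TCR signals in these cells, had log2 ratios of -0.83 and -1.74. Cd163l1, a scavenger receptor of some gamma delta cells, held 12 UMIs in 7 barcodes of anti-PD-1 and 46 UMIs in 19 barcodes of combination in response. Sox13, a factor of gamma delta commitment, held 7 and 10 UMIs. Most DN-like barcodes therefore carried gamma constant transcripts without a detected UMI of Cd163l1 or Sox13.

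Cell cycle genes differed by list. The S phase list summed to 5881 CPM against 6237 CPM in anti-PD-1. In combination in response it was higher, at 4805 CPM against 3800 CPM. The G2 and mitosis list was lower in both libraries, at 5476 CPM against 9226 CPM and at 3828 CPM against 6777 CPM. Of 20 S phase genes, 19 passed in each library and none was past 2-fold, with medians of -0.09 and 0.37. Of 20 genes of G2 and mitosis, all passed, 4 and 3 were 2-fold lower, and the medians were -0.65 and -0.70. Of all measured genes, 10.6% and 10.5% were 2-fold lower. Mki67 was at 421 CPM against 899 CPM and at 484 CPM against 730 CPM. Its log2 ratio in combination in response, -0.59, depended on which barcodes were kept. It was -4.05 without barcodes of outlying depth or mitochondrial share, a setting that kept 143 of the 214 DN-like barcodes. It was -2.17 without DN-like barcodes with an Ighm, Cd79a or Cd79b UMI and -1.47 without DN-like barcodes with a Cd8 UMI. Thinned to 500 UMIs, Mki67 or Top2a was detected in 24.5% (16.4 to 34.2) against 35.6% in anti-PD-1 and in 15.0% (10.5 to 20.4) against 14.0% in combination in response. Ccnd3, the cyclin needed for growth after the pre-TCR checkpoint, had log2 ratios of -1.20 and -1.62.

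Survival and growth genes summed higher in DN-like barcodes, and a minority of them were past 2-fold. The nucleolar genes Npm1 and Ncl were at 5113 CPM against 2429 CPM and 3941 CPM against 2176 CPM in anti-PD-1, and at 3865 CPM against 1927 CPM and 3506 CPM against 2139 CPM in combination in response. Among 18 survival and growth genes, 12 and 15 passed, 3 and 2 were 2-fold higher, 1 was lower in each (Bcl2l1), and the medians were 0.59 and 0.48. Of all measured genes, 4.14% and 6.49% were 2-fold higher. The list summed to 10979 CPM against 6151 CPM and to 9302 CPM against 5752 CPM. In the DN-like barcodes without an Ighm, Cd79a or Cd79b UMI, against all comparison barcodes, the log2 ratio of Npm1 was 0.77 and 0.22 instead of 1.07 and 1.00. Bcl2 had log2 ratios of 0.59 and 1.01, the reverse in sign of Bcl2l1.

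Outside the lists, the genes with the largest ratios in both libraries were taken by size, 12 in each direction. The highest were Gm4632, a long noncoding RNA at chr14:79178893-79199190 (GRCm38.p6), with log2 ratios of 5.01 and 4.68, and Myl10, a myosin light chain at chr5:136688892-136701857, with ratios of 4.28 and 4.11. Myl10 was found in 65 of 98 barcodes at 335 CPM against 17.2 CPM, and in 156 of 214 at 578 CPM against 33.5 CPM. Gm4632 was found in 17 of 98 and in 106 of 214 barcodes. Scin, an actin-severing protein, followed with ratios of 5.13 and 4.05 from 20 and 61 UMIs, then Trgc4, Trgc2 and Trgv2.

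The remaining genes by size were Atp8b4, Mcub, Plac8, 5830411N06Rik, Clec12a and Akr1c13, with log2 ratios from 3.45 to 4.09 in anti-PD-1 and from 2.79 to 3.40 in combination in response. Plac8 was the most abundant of them, at 1195 CPM against 77.7 CPM and at 839 CPM against 93.1 CPM. Thinned to 500 UMIs it was detected in 40.8% of DN-like barcodes of anti-PD-1 against 2.15% of other T-lineage and 19.2% of B-like barcodes. Against double positive-like barcodes, all 12 were higher in both libraries, with log2 ratios of 3.31 or more. A closer comparison was with 1155 and 1359 other T-lineage barcodes without Il2ra, Cd4, Chga or Chgb and with at most 1 Cd8 UMI. All 12 were higher there, by as little as 1.94 for Trgv2 in anti-PD-1 and 1.36 for 5830411N06Rik in combination in response. Plac8 was at 2.41 and 2.44 there. Both sets are part of the comparison barcodes by which the 12 were chosen, so these ratios are no separate check.

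Of the genes lower by size, Trac is given above. Adgre5 (CD97, an adhesion receptor) held 2 and 11 UMIs, a log2 ratio of -3.55 in each, with intervals of -6.60 to -1.69 and -4.55 to -2.70. Fas, the death receptor, had ratios of -3.52 and -3.36, Ptms -3.85 and -2.96, the tetraspanin Cd81 -2.63 and -2.90, and Chrna9, an acetylcholine receptor subunit, -3.38 and -2.60. These 5 were lower against double positive-like barcodes alone, which are part of the comparison barcodes by which they were chosen. Slpi, a protease inhibitor, was lower at -4.18 and -4.07 from 7 and 2 UMIs, the latter with an interval of -7.12 to -2.21, but was at -0.34 in combination in response without barcodes of outlying depth or mitochondrial share, and at -0.84 and 0.07 against double positive-like barcodes. Gimap3 likewise changed from -2.96 and -2.93 to -0.64 and -0.77. Ckb, Gm15340 and Jup were also lower by this measure.

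**Figure D4:**
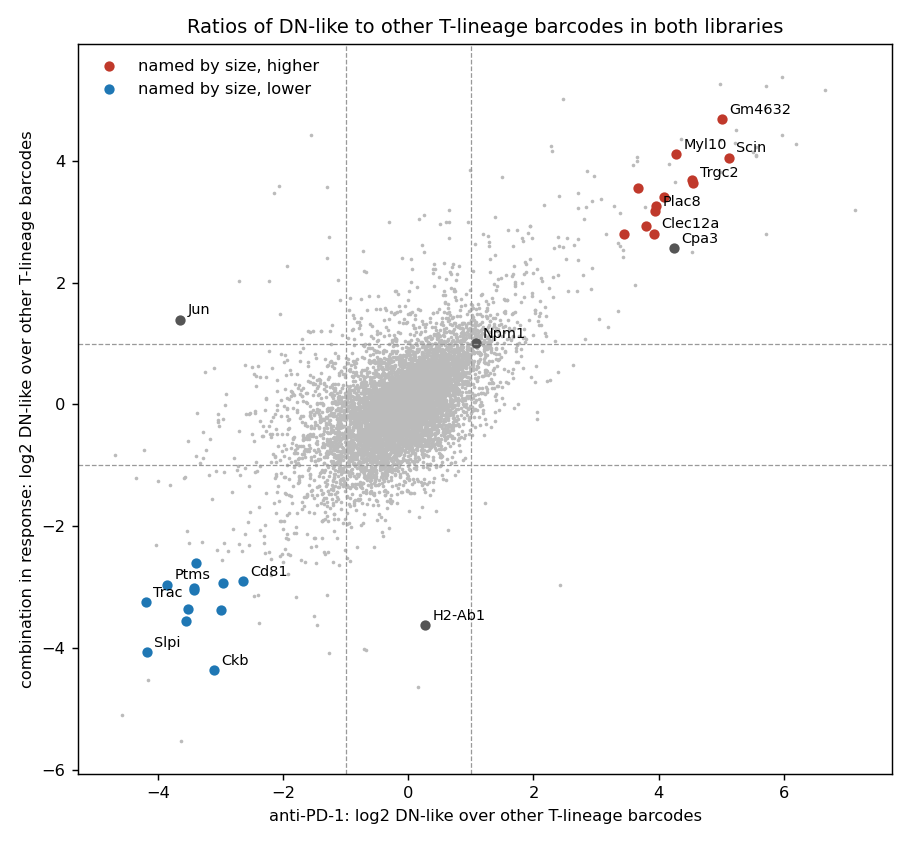
Log2 ratio of DN-like over other T-lineage barcodes in anti-PD-1 (horizontal) and in combination in response (vertical), 1 point per gene with a ratio in both, rule genes left out, with dashed lines at 2-fold. Genes named by size lie in the upper right (red) and lower left (blue), while Jun and H2-Ab1 lie away from the diagonal, at -3.64 and 1.39 and at 0.27 and -3.62.

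Markers of other cell types were examined because the gate could admit them. Foxp3, which defines regulatory T cells, another kind with Il2ra, held 1 UMI in anti-PD-1 and 0 in combination in response. The regulatory T list summed to 103 CPM against 122 CPM in anti-PD-1 and to 218 CPM against 112 CPM in combination in response. Of 3 genes of it that passed there, 2 were 2-fold higher, Ctla4 with 117 UMIs and a log2 ratio of 1.87 and Capg with 92 UMIs and a ratio of 1.50. Of the markers of group 2 innate lymphoid cells, Il1rl1, Areg, Il5, Il13 and Klrg1 were at 0 in both libraries, and nearly all UMIs of that list were Gata3. The macrophage and monocyte list summed to 9.41 CPM against 213 CPM and to 51.3 CPM against 305 CPM, with 8 and 3 of 9 genes at 0, and the dendritic list to 11.3 CPM against 53.3 CPM and 8.14 CPM against 25.5 CPM. Of the plasmacytoid dendritic list, Siglech, Klk1 and Cd209d were at 0, while Bst2 had log2 ratios of 1.06 and 1.29. Thymic epithelial genes summed to 15.1 and 38.2 CPM, with Foxn1, Psmb11, Prss16, Dll4, Krt5, Krt14 and Tbata at 0.

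Genes of cytotoxic cells stood out in part. Their list summed to 1087 CPM against 499 CPM and to 811 CPM against 450.3 CPM. Gzma, a granule protease, was at 815 CPM against 256 CPM and 484 CPM against 171 CPM, and Nkg7, a granule membrane protein, at 196 CPM against 54.3 CPM and 270.1 CPM against 79.4 CPM. Without DN-like barcodes that held an Ighm, Cd79a or Cd79b UMI, the log2 ratio of Gzma in combination in response was 0.25 instead of 1.50. Ccl5 was lower, with log2 ratios of -1.32 and -2.46, Eomes was at 0, Gzmb held 2 UMIs in each library and Prf1 1 and 2. Cpa3, a protease of mast cells, held 155 UMIs in 27 of 98 barcodes and 193 UMIs in 48 of 214, log2 ratios of 4.25 (3.95 to 4.54) and 2.56 (2.31 to 2.80). The other mast and basophil genes Mcpt8, Fcer1a, Ms4a2, Tpsab1 and Gata2 were at 0 and Hdc held 0 and 1 UMI.

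Genes of the B cell, neuroendocrine tumor and red cell lists were found as well. Ighm, the immunoglobulin mu chain, held 565 UMIs in 62 barcodes of anti-PD-1, of which 363 lay in 1 barcode, and 302 UMIs in 99 barcodes of combination in response. Its log2 ratios were -0.33 and -1.43, and after thinning it was detected in 21.4% and 10.7% of DN-like barcodes against 20.1% and 18.7% of other T-lineage barcodes and 71.8% and 87.9% of B-like ones. Cd79a was present in 2 of 98 and 0 of 214 barcodes. The list of neuroendocrine tumor genes summed to 102 CPM against 707 CPM in anti-PD-1. The rule allowed no Chga or Chgb UMI in DN-like barcodes but allowed them in the comparison barcodes, so it favors a lower sum by itself. In combination in response the list summed to 103 CPM against 18.3 CPM. Epcam, an adhesion molecule, held 121 of its 126 UMIs there, with a log2 ratio of 3.04. The erythroid list summed to 171 CPM against 370.5 CPM and to 135 CPM against 3396 CPM. How far free RNA, joined cells or the DN-like cells themselves gave these transcripts was not tested.

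Levels also varied among DN-like barcodes with their own Il2ra count. Of the barcodes of combination in response, 45 held 1 Il2ra UMI, 58 held 2 to 4 and 111 held 5 or more, with median depths of 2702, 3311.5 and 4419 UMIs. Across these sets Hes1 was at 681, 904 and 1335 CPM, Trgc1 at 731, 1138 and 2067 CPM, Myl10 at 320.2, 514 and 683 CPM, and Erg at 5.00, 56.5 and 99.6 CPM. Cd2 was at 125, 71.3 and 23.1 CPM and Ighm at 350.3, 303 and 188 CPM. Notch1 was at 170.1, 276 and 289 CPM and Notch3 at 90.1, 83.2 and 73.6 CPM, so that the Notch receptors did not follow Hes1 throughout. Both Hes1 and Trgc1 were used by the rule.

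In anti-PD-1 the sets were smaller, at 44, 43 and 11 barcodes. Hes1 was at 189, 298 and 604 CPM there, but Trgc1 was at 1200, 1880 and 1253 CPM and Ptcra at 98.3, 133 and 30.2 CPM, the latter from 2 UMIs in the last set. Ighm was at 1845, 365 and 287 CPM, with the barcode of 363 UMIs in the first set. These are descriptions of barcodes of 1 library, since both the sets and the levels come from the same counts.

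**Figure D5:**
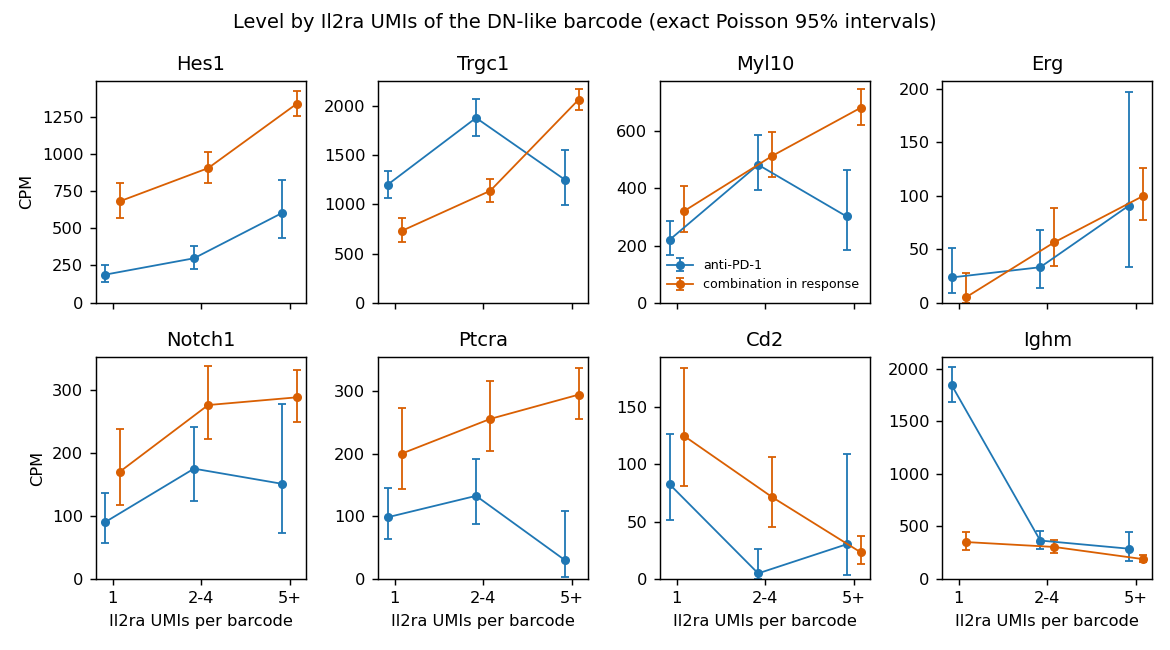
Level in CPM of 8 genes in DN-like barcodes with 1, 2 to 4, or 5 or more Il2ra UMIs, with exact Poisson 95% intervals, in anti-PD-1 (blue) and combination in response (orange). Hes1 is higher in each successive set of both libraries, at 189, 298 and 604 CPM and at 681, 904 and 1335 CPM, whereas Trgc1, Myl10 and Ptcra are so only in combination in response.

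The barcodes just inside and just outside the thresholds differed by degree. Of the DN-like barcodes, 13 and 64 held the 1 permitted UMI of Cd8a or Cd8b1. In combination in response, Hes1 was at 1371 CPM in the 150 barcodes without such a UMI, at 797 CPM in the 64 with 1, at 738 CPM in 26 barcodes outside the rule with 2, and at 197 CPM in 90 barcodes with more. Il2ra followed the same order, at 1434, 639.8, 801 and 402 CPM, except that it was higher with 2 than with 1. The 36 barcodes left out for Cd4 alone held Hes1 at 782 CPM and Il2ra at 1002 CPM. Without Il2ra but otherwise inside the rule there were 309 and 501 barcodes, with Hes1 at 136 and 127 CPM and Trac at 181 and 583 CPM. The 26 and 27 barcodes with Il2ra and none of the 4 genes held Ccl5 at 3119 and 195 CPM and 9 and 5 UMIs of Foxp3. In anti-PD-1, 15 barcodes were left out for a Chga or Chgb UMI alone.

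DN-like barcodes of the 2 libraries were compared with each other as libraries, not as treatments, with the same ratio in other T-lineage barcodes beside it. Of 5238 genes measured, 785 were at least 2-fold higher in combination in response (15.0%) and 152 at least 2-fold lower (2.9%). The median log2 ratio of all genes was 0.20 in DN-like and 0.16 in other T-lineage barcodes. With that median set to 0, 511 genes were higher and 286 lower, so that the split depends on the scaling.

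The 8 genes with the highest ratios were Jun, Hspa1a, Dusp1, Sik1, Fos, Ppp1r15a, Hspa1b and H19. Jun, a subunit of the AP-1 factor, held 4 UMIs in 3 of 98 barcodes and 492 UMIs in 103 of 214, a log2 ratio of 5.73 (4.37 to 7.61), against 0.70 in other T-lineage barcodes. Hspa1a, a heat shock chaperone, held 5 and 511 UMIs, a ratio of 5.47 against 6.25 in the others. Fos, the partner of Jun, held 0 and 186 UMIs, at least 4.74 on the log2 scale, and Hspa1b 0 and 147, at least 4.41. Ppp1r15a, a stress gene, had a ratio of 4.68 against 3.87 in the others, and Dusp1, Sik1 and the imprinted noncoding RNA H19 had ratios of 5.17, 5.17 and 4.38 from 1, 1 and 2 UMIs in anti-PD-1, with lower bounds of 2.65, 2.65 and 2.48. H19 was found in 25 of 214 barcodes. Except for Jun and Dusp1, the ratio in other T-lineage barcodes was above 3 for each of the 8 genes. Handling of the tissue and the treatment cannot be told apart here.

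The 8 genes with the lowest ratios were Mt2, Mt1, Gm1673, Nnat, Jchain, H2-Ab1, H2-Aa and Cd74. Mt1, a metal-binding protein, held 102 UMIs in anti-PD-1 and 5 in combination in response, a log2 ratio of -5.56, against -7.14 in other T-lineage barcodes. Mt2 was at -6.12 (-11.47 to -3.53) from 30 and 1 UMIs and Gm1673 at -5.53 (-10.90 to -2.89) from 20 and 1 UMIs. Nnat, a neuronal protein, held 54 and 0 UMIs, a fall of at least 5.38 on the log2 scale, beside the 2516 tumor-like barcodes of anti-PD-1 and 0 of combination in response. H2-Ab1, H2-Aa and Cd74, of the class II antigen presentation pathway, were lower at -3.35, -3.18 and -3.10, while the same genes were at 0.54, 0.17 and -0.28 in other T-lineage barcodes. H2-Aa in anti-PD-1 lay in 4 barcodes and Cd74 in 22. With at least 2 Il2ra UMIs required, the ratios of H2-Aa and Cd74 were -0.15 and -0.27. Jchain, of plasma cells, was at -3.96.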

How the data were processed

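The authors deposited 5 matrices of UMI counts per gene and barcode, made with CeleScope from Singleron SCOPE-chip libraries according to the study's methods. The submitters' processing notes name Cell Ranger, Scanpy and mm10, without roles. For the matrices, the version of the tool and the gene annotation are not stated; the methods give versions for later steps, which were not used here. The deposited counts are whole numbers and were not normalized.

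UMIs were summed per library over DN-like and over other T-lineage barcodes and scaled to 1000000 (CPM) with exact Poisson intervals. Log2 ratios of summed UMIs have exact conditional intervals at 95%, and a count of 0 was set to the limit of 3 counts. The intervals and limits cover counting error only. Shares have Clopper-Pearson intervals. Python 3.11.15, numpy 2.4.6, scipy 1.17.1, pandas 2.3.3 and matplotlib 3.10.9 were used, and the ratio was tested on simulated data. Barcodes are not replicates and there was 1 library a group, so no test was made. SOLO, the doublet caller named in the study's methods, was not run. Doublets were kept, and Scrublet in scanpy 1.11.5 was an alternative. It marked 2.07% of barcodes in anti-PD-1 (0 DN-like). Its automatic threshold marked 0.00993% in combination in response and had not worked there, so a score of 0.25 was used, which marked 3.02% (1 DN-like barcode).

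The barcodes, gene lists and alternatives were chosen with earlier results of these data known. Named genes were the rule genes, genes of the lists with at least 20 UMIs over both libraries (sparser marker genes are given by their UMIs), and the 12 genes in each direction with the largest smaller ratio of the 2 libraries, with the same sign, leaving out rule, mitochondrial, ribosomal protein, hemoglobin, immunoglobulin and sex-linked genes. Between libraries they were the 8 in each direction. Rag1, Il2rg, Cdt1, Zfpm1 and Itgam were listed at 0 in all 5 libraries. Genes were placed by Ensembl identifier on RefSeq GRCm38.p6. Some genes that these rules would name are not reported here.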

Additional observations from a re-analysis of the deposited data

Results flagged for a closer look

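For 9 named genes the log2 ratio of DN-like to other T-lineage barcodes had opposite signs in the 2 libraries with intervals on opposite sides of 0. The difference between libraries was not tested, since each is 1 library. Of 4821 genes measured in both, 1300 had opposite signs and 115 of them had intervals on opposite sides.

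Jun was at -3.64 in anti-PD-1 and at 1.39 in combination in response. Hbb-bt, a beta globin, was at 2.42 and -2.96, with 87 UMIs in 5 barcodes of anti-PD-1, the widest gap of the 9. Lef1 and Myb, factors of T-lineage commitment, were at 0.37 and -0.70 and at 0.65 and -0.13. Of the double positive stage list, Cd53 was at 0.53 and -0.39 and Cd1d1 at 0.72 and -0.38. Of the S phase list, Pcna was at -0.28 and 0.23, Dut at -0.16 and 0.25, and Lig1 at -0.21 and 0.42.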

How the results depend on the processing

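With at least 2 Il2ra UMIs, 54 barcodes were left in anti-PD-1 and the shares of T-lineage barcodes were 0.891% and 1.98%. Without any Cd8 UMI the share in combination in response was 1.76%. With the study's filters on depth and mitochondrial share it was 1.90%, from 143 DN-like barcodes. Over all barcodes that passed, the shares were 0.756% and 2.13%. Chosen after seeing the data, leaving out DN-like barcodes with an Ighm, Cd79a or Cd79b UMI kept 28 of 98 and 96 of 214. This setting, called without B cell transcripts below, dropped a DN-like barcode for a single such UMI and looked at no other B cell gene. It kept the other T-lineage barcodes with such a UMI, so DN-like and comparison barcodes were not treated alike.

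The counts of genes past 2-fold depended on depth and on the minimum. In anti-PD-1 (206 higher, 527 lower), 306 were lower with at least 2 Il2ra UMIs, 60 higher and 89 lower without B cell transcripts, 317 higher by the mean CPM of barcodes, 42 higher and 51 lower after thinning, 387 and 1041 at a minimum of 10, 1312 and 2199 without a minimum, and 92 higher with a filter on the pooled mean, which was also chosen after seeing the data. In combination in response (525 higher, 848 lower) the corresponding values were 330 and 334 without B cell transcripts, 892 higher by the mean, 201 and 218 after thinning, 1962 and 1634 without a minimum, and 268 higher by the pooled mean. Fewer barcodes, fewer UMIs or a stricter filter leave fewer genes to count. Between libraries, 384 genes were higher with at least 2 Il2ra UMIs, and the median scaling gave 511 higher and 286 lower.

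The share of DN-like barcodes with Notch1 was 14.7% and 28.9% at 1000 UMIs and 41.8% and 66.4% without thinning, and that with Trdc 41.1% and 40.2%, then 63.3% and 68.2%. Of 1560 values for 67 named genes under the alternatives, 65 moved past the 2-fold line. No ratio past 2-fold in the main analysis changed sign, and changes of sign among smaller ratios were not counted. In anti-PD-1, Adgre5, Ckb and Gimap3 came within 2-fold, at -0.25, -0.97 and -0.66, without B cell transcripts, as did Adgre5 at -0.08 after thinning. In combination in response, Slpi was at -0.34 with the study's filters, and Ckb and Jup were at -0.43 and -0.31 after thinning. In those libraries these genes held at most 6 UMIs in DN-like barcodes. Leaving out barcodes found in both libraries or marked by Scrublet moved no count by more than 1.5 times. No paired analysis was possible because each group holds 1 library. With 98 and 214 barcodes, genes under 20 UMIs could not be placed within 2-fold.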
